A study of Homo sapiens with 5 samples.

Results

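Interferon-stimulated genes were followed in NK92MI, a human line of natural killer (NK) cells with an introduced IL2 gene, after culture with an inhibitor of histone methylation. The members were the 43 genes of a list of interferon-stimulated symbols, all of which had a row among the 57221 rows of the count table. Of these, 38 had 10 or more counts in at least 2 of the 5 libraries, and the same 38 were among the 13075 genes tested. Cells received 10 µM UNC1999 for 48 h (3 libraries), or the solvent DMSO for 48 h (2 libraries). UNC1999 blocks EZH2 and EZH1, the methyltransferases through which polycomb repressive complex 2 marks lysine 27 of histone H3. The labels name no separate cultures and 1 cell line only, so the spread between libraries may be technical. The comparison asks whether inhibition is followed by a viral-mimicry response, in which interferon-stimulated genes are switched on without a virus.

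As background, nucleic acid sensors such as the products of IFIH1 and DDX58 start the production of interferons when they meet viral or retroelement RNA. Secreted type I interferon binds the receptor chains IFNAR1 and IFNAR2, and the kinases JAK1 and TYK2 then activate a transcription factor complex that includes STAT2 and IRF9. That complex binds the interferon-stimulated response element, whose core reads GAAA, 2 bases of any kind and GAAA again, in the promoters of genes that block steps of viral replication.

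These promoter stretches are shown because they hold that core in members that passed the test in either direction, and they are given 5′ to 3′ on the gene's strand with each match to that core in capitals. They come from RefSeq (build GRCh38.p14) windows of 250 bases before to 50 bases after each annotated start site. PARP14, SAMD9, MX1 and IFITM1 were the called members with a match that had the smallest p. DTX3L and ISG15 were added after their values were seen, the first for a match shared with its neighbour and the second as a member that did not pass the test.
PARP14 (chr3:122680775-122680854, plus strand): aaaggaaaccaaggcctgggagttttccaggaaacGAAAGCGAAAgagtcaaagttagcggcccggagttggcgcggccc
SAMD9 (chr7:93118071-93118150, minus strand): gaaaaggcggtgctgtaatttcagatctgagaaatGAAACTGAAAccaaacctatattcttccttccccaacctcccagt
MX1 (chr21:41420503-41420582, plus strand): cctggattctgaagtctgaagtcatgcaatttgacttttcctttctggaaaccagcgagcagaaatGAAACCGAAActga
IFITM1 (chr11:313982-314061, plus strand): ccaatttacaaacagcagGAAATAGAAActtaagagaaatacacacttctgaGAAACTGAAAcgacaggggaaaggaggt
DTX3L (chr3:122564283-122564362, plus strand): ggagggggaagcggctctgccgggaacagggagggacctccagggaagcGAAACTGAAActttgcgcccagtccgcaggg
ISG15 (chr1:1013352-1013431, plus strand): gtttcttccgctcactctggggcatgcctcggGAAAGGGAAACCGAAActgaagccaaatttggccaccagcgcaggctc

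Of the 43 members, 35 had a window in the RefSeq table, and 22 of these (62.9%) held this core on either strand, against 4.38% of the 27305 genes in that table. The match was found in 9 of 14 members that were higher in UNC1999, in 2 of 5 that were lower and in 8 of 13 that were tested and not called. The gamma-activated site core TTCNNNGAA, which reads the same on both strands, was in 8 of 35 members (22.9%), against 9.38% of all genes. In ISG15 the capitals hold a pair of overlapping matches. The match of DTX3L (chr3:122564332-122564341) was also the match in a window of PARP9, which lies head to head with it on the opposite strand. A match describes letters only, and binding was not measured.

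Each library held 8442908 to 8748106 counts, and levels are given in CPM (counts per 1000000 counts of a library, with the library size scaled by the normalization factor). A count of 0 allowed up to 0.327 to 0.372 CPM, depending on the library (3 counts, counting error only). UNC1999 replicate 2 stood apart from the other UNC1999 libraries, with chi-square statistics per degree of freedom of 7.47 and 8.77 against them, where UNC1999 replicates 1 and 3 gave 1.81 and the DMSO pair 3.14. NK cell markers were present, with a summed level of 4507 to 5097 CPM in UNC1999 and 4798 to 5003 CPM in DMSO for 8 of 8 genes. Of these, CD7 was called higher, with a mean of 89.1 CPM in UNC1999 and 49.8 CPM in DMSO (log2 fold change 0.84, adjusted p = 7.38e-06 by edgeR). None was called lower. In the fit with GC content and length offsets given below, CD7 and PRF1 were called higher and KLRD1 and CD2 lower. Summed markers of T cells were at 97.8 to 107.8 CPM in UNC1999 and 122.9 to 134.7 CPM in DMSO, mostly from TRAC. Those of B cells were at 17.3 to 24.5 CPM in UNC1999 and 23.8 to 25.6 CPM in DMSO, mostly from PAX5. Those of monocytes were at 10.8 to 11.9 CPM in UNC1999 and 15.5 to 17.004 CPM in DMSO. The monocyte difference lay in S100A9, with a mean of 5.10 CPM in UNC1999 and 10.6 CPM in DMSO, while CSF1R had 6.05 CPM in UNC1999 and 5.46 CPM in DMSO. Their part in the results was not tested, and fewer cells of a type and less RNA per cell cannot be told apart in bulk RNA. CD3D, CD3G, CD4, CD8B, MS4A1, LYZ, CLEC4C and LILRA4, which mark T cells, B cells, monocytes and plasmacytoid dendritic cells, had no count in any library.

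The members split between genes that were higher and genes that were lower in UNC1999. Of the 38 tested members, 14 were higher and 5 were lower with an edgeR adjusted p under 0.05, and 19 were not called. The higher genes were SAMD9L, XAF1, SAMD9, PARP14, SP100, IFITM1, RSAD2, IFIH1, DTX3L, ISG20, IFI16, GBP1, PARP9 and IFI35, and the lower ones were MX1, ADAR, TRIM25, IFI6 and CMPK2. The 14 were 36.8% of the members, with 15.7% of all tested genes called higher, and the 5 were 13.2%, with 19.5% of all tested genes called lower. The median log2 fold change was 0.28 over the members and -0.01 over all tested genes. SAMD9L, XAF1, SAMD9 and PARP14 (4 of 38) exceeded a 2-fold increase, where 384 of the 13075 tested genes rose 2-fold or more. No tested member fell that far. In the fit with offsets given below, XAF1 stayed above 2-fold (1.13 on the log2 scale). SAMD9L (0.78), SAMD9 (0.61) and PARP14 (0.81) did not. In CPM, every UNC1999 library lay above both DMSO libraries for 17 members, or 44.7%, with 24.2% of all tested genes. Every UNC1999 library lay below both DMSO libraries for 10 members, or 26.3%, with 30.4% of all tested genes. Without UNC1999 replicate 2, 15 members were called higher and 6 lower. That fit called 2862 of all tested genes higher and 3030 lower, against 2057 and 2546 with every library. The higher calls numbered 5 without DMSO replicate 1, 7 without DMSO replicate 2 and 9 without UNC1999 replicate 3, in fits that called 1158, 1309 and 1821 of all tested genes higher, against 2057 with every library. The lower calls numbered 3 without either DMSO library, in fits that called 1367 and 1667 of all tested genes lower, against 2546. Without normalization factors the median of all tested genes moved by 0.10 on the log2 scale, and 2949 of them were called higher and 1742 lower, against 2057 and 2546 with the factors. In that fit 16 members were higher and 4 lower.

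**Figure D1:**
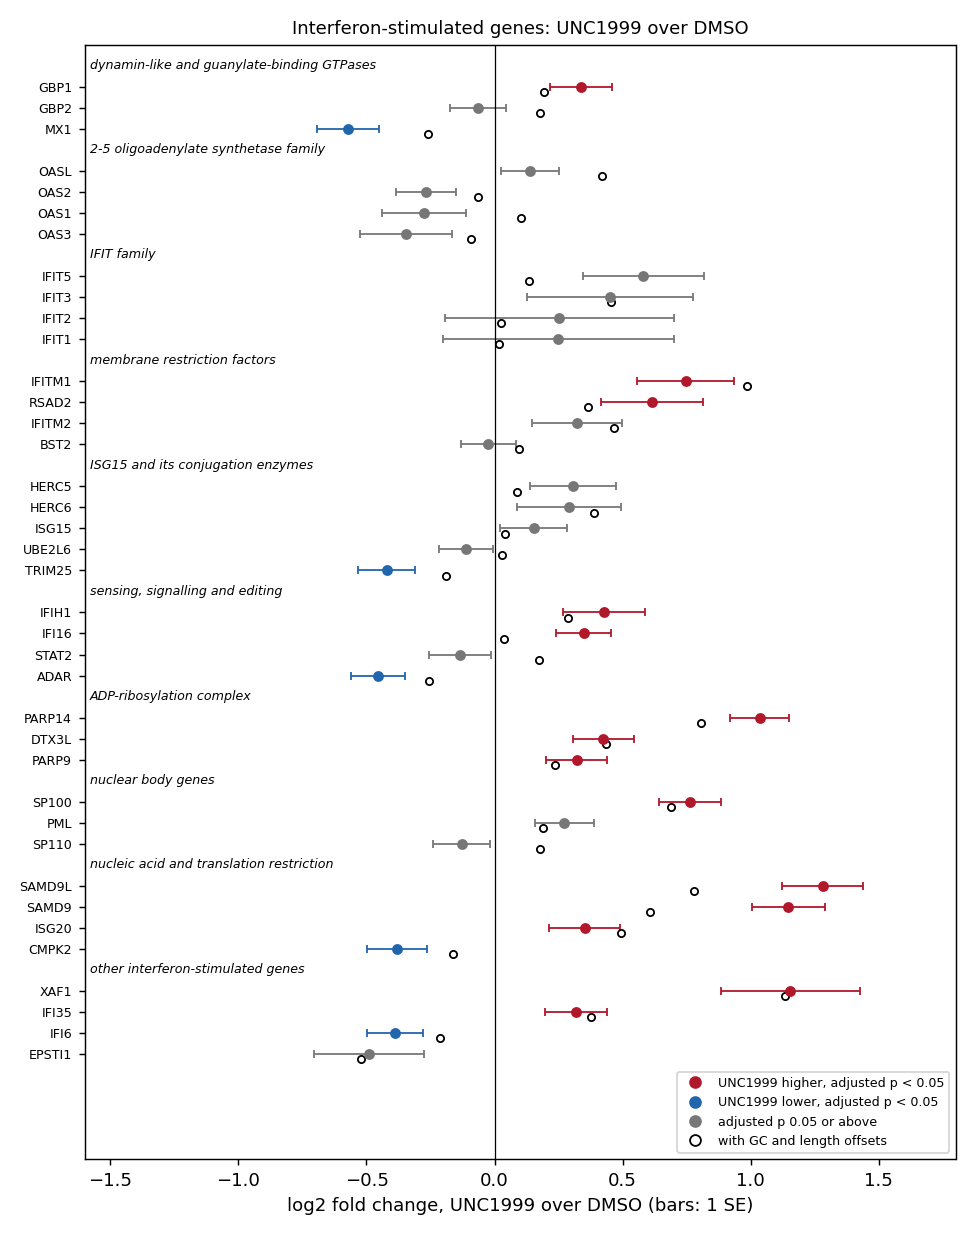
Log2 fold change of UNC1999 over DMSO for the 38 tested members, grouped by role, with bars of 1 SE from the edgeR fit on 3 and 2 libraries. Red points were called higher (14), blue points lower (5) and grey points were not called (19), and open circles give the value with GC content and length offsets. All 3 ADP-ribosylation genes lie right of 0, while most members of the OAS family lie left of it without offsets.

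Fold changes in these libraries followed the GC content of the genes, which was measured on GENCODE 29 transcripts. Of 10 equal groups of protein-coding genes ordered by GC content, the lowest had a median of 0.45 on the log2 scale, the sixth had -0.39 and the highest had 0.17, so the trend was not a steady fall. The 14 higher members had a median GC content of 43.4% and the 5 lower ones had 52.7%. Across the 38 members, which share the same libraries, the log2 fold change and GC content had a Spearman rho of -0.50, and -0.19 in a fit with offsets that remove the trends with GC content and transcript length. With offsets 13 members were higher and 4 lower, or 34.2% and 10.5%, with 14.7% and 18.3% of 11258 genes called in that fit, and the median over the members was 0.18. Of the 19 called members, 14 were called again in the same direction (10 higher and 4 lower), 5 were not, and none turned round. OASL, IFITM2 and PML were called, all higher, only with offsets. The part of base composition in the calls without offsets was not tested in any other way.

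**Figure D2:**
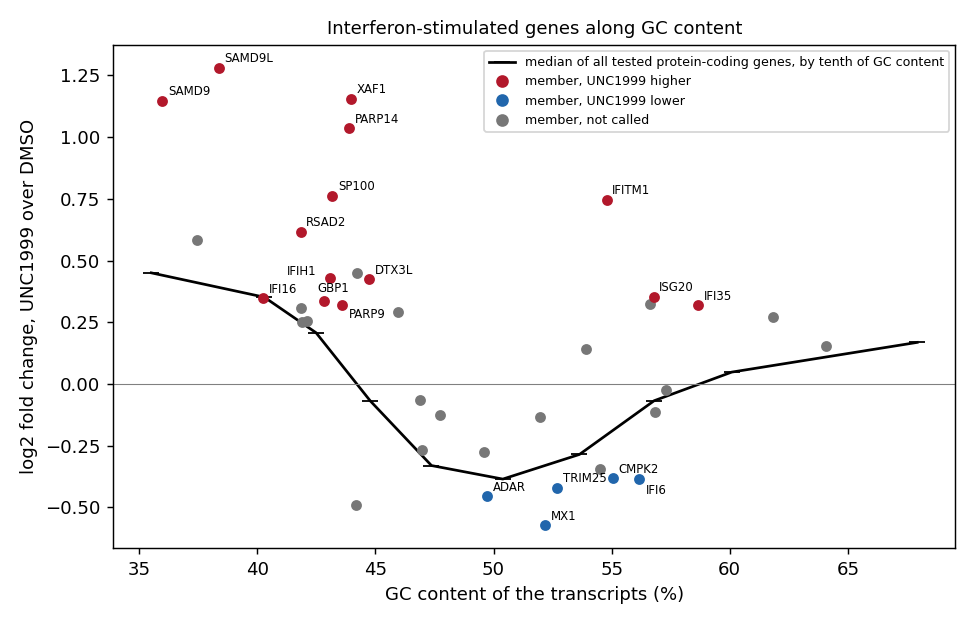
GC content of the transcripts in percent (horizontal) against the log2 fold change of UNC1999 over DMSO (vertical) for the 38 tested members, with called members named. The black line joins the medians of all tested protein-coding genes in 10 equal groups by GC content, drawn at the middle of each group. SAMD9, SAMD9L, PARP14, XAF1, SP100 and IFITM1 lie well above the line. IFI16 lies on it, and EPSTI1, which was not called, and the 5 lower members lie below it.

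Among genes of sensing, signalling and RNA editing, the sensor genes were higher and the editing enzyme gene was lower. IFIH1, which encodes the RNA sensor MDA5, had 13.1, 15.9 and 17.3 CPM in UNC1999, against 10.8 and 12.1 CPM in DMSO. All UNC1999 libraries lay above both DMSO libraries, with a log2 fold change of 0.43 ± 0.16 SE (adjusted p = 0.036 by edgeR) and 0.29 with offsets, where it was not called. IFI16, a sensor of DNA, had 189.6, 199.2 and 204.1 CPM in UNC1999, against 149.6 and 160.9 CPM in DMSO. Its groups did not overlap (log2 fold change 0.35 ± 0.11 SE, adjusted p = 0.0111 by edgeR), but its value with offsets was 0.038 and it was not called there. ADAR, the enzyme that edits adenosine in double-stranded RNA and so hides cellular RNA from IFIH1, had 385.0, 417.7 and 394.0 CPM in UNC1999, against 574.3 and 520.5 CPM in DMSO. It fell in each UNC1999 library below both DMSO libraries (-0.46 ± 0.11 SE, adjusted p = 0.000836 by edgeR), and by 0.26 on the log2 scale with offsets (adjusted p = 0.00142 by edgeR). STAT2, the transcription factor subunit of the response complex, had 32.9, 34.0 and 33.7 CPM in UNC1999, against 36.4 and 37.2 CPM in DMSO, and did not pass the test (-0.13, adjusted p = 0.413 by edgeR). It was 0.17 with offsets and still not called. IFIH1 lost its call without DMSO replicate 1 or 2 or UNC1999 replicate 3 (adjusted p = 0.267, 0.0865 and 0.147 by edgeR), without the filter on low counts (0.0536) and in the DESeq2 test (0.0959). Leaving out the same libraries ended the call of IFI16 (adjusted p = 0.202, 0.065 and 0.0513 by edgeR), and leaving out DMSO replicate 1 that of ADAR (0.0637).

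The genes of the PARP9, DTX3L and PARP14 group all rose, with and without offsets. All 3 were called higher in both fits, which called 15.7% of all tested genes higher without offsets and 14.7% with them. PARP14, the largest of these ADP-ribosyltransferases, had 116.0, 112.4 and 119.7 CPM in UNC1999, against 52.4 and 60.8 CPM in DMSO. That is a mean of 116.0 ± 3.66 CPM in UNC1999 and 56.6 ± 5.91 CPM in DMSO (SD, n = 3 and n = 2). The fitted increase was 2.05-fold, or 1.04 ± 0.12 SE on the log2 scale (adjusted p = 2.63e-08 by edgeR). It had the smallest p of the members, and its log2 fold change was 0.81 with offsets (adjusted p = 2.11e-09 by edgeR). DTX3L, a ubiquitin ligase that works as a dimer with PARP9, had 90.1, 103.1 and 107.1 CPM in UNC1999, against 65.9 and 83.2 CPM in DMSO. Its groups did not overlap, with 0.42 ± 0.12 SE (adjusted p = 0.00496 by edgeR) and 0.44 with offsets. PARP9 had 55.6, 66.2 and 70.9 CPM in UNC1999, against 50.04 and 52.8 CPM in DMSO (0.32 ± 0.12 SE, adjusted p = 0.0353 by edgeR, and 0.24 with offsets). The 3 genes lie on chromosome 3, where GENCODE 29 (GRCh38) places PARP9 from 122527924 to 122564577, DTX3L from 122564238 to 122575203 and PARP14 from 122680618 to 122730840. PARP9 and DTX3L share 217 exon bases on opposite strands, and with the strand setting not given, reads from those bases have no sure owner. The DTX3L call was lost without DMSO replicate 1 (0.26, adjusted p = 0.272 by edgeR) and the PARP9 call without DMSO replicate 1 or 2 or UNC1999 replicate 3 (adjusted p = 0.259, 0.128 and 0.186 by edgeR) and without the filter on low counts (0.0546).

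The neighbouring genes SAMD9 and SAMD9L, whose products restrict poxviruses and lower protein synthesis, were among the members that rose most. SAMD9L had 30.4, 26.7 and 39.6 CPM in UNC1999, against 12.0 and 14.4 CPM in DMSO. Its mean was 32.2 ± 6.64 CPM in UNC1999 and 13.2 ± 1.66 CPM in DMSO (SD, n = 3 and n = 2), which is 1.28 ± 0.16 SE on the log2 scale (adjusted p = 1.44e-07 by edgeR). SAMD9 had 26.5, 27.7 and 29.01 CPM in UNC1999, against 12.9 and 12.1 CPM in DMSO, a log2 fold change of 1.15 ± 0.14 SE (adjusted p = 1.64e-07 by edgeR). With offsets SAMD9L had 0.78 and SAMD9 0.61, below 2-fold, and both were called (adjusted p = 6.77e-05 and 0.000239 by edgeR). They lie on chromosome 7 (GRCh38, GENCODE 29), SAMD9 from 93099513 to 93118023 and SAMD9L from 93130055 to 93148369, and their transcripts had a GC content of 36.0% and 38.4%. ISG20, an exonuclease gene, had 26.4, 21.5 and 24.0 CPM in UNC1999, against 18.0 and 19.5 CPM in DMSO (0.35 ± 0.14 SE, adjusted p = 0.0456 by edgeR, and 0.49 with offsets). Its call was lost whenever a library other than UNC1999 replicate 2 was left out (adjusted p = 0.0829 to 0.283 by edgeR), without the filter on low counts (0.0816) and in the DESeq2 test (0.0891). CMPK2, a mitochondrial nucleotide kinase gene, went the other way, with 49.3, 58.5 and 55.3 CPM in UNC1999, against 64.4 and 77.3 CPM in DMSO (-0.38 ± 0.12 SE, adjusted p = 0.00984 by edgeR). CMPK2 was not called with offsets (-0.16, adjusted p = 0.194 by edgeR), without normalization factors (0.0661), without DMSO replicate 2 (-0.25, 0.276) or without UNC1999 replicate 1 (0.0845).

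Nuclear body genes gave 1 higher and no lower member of 3 tested, or 33.3% and 0%, with 15.7% and 19.5% of all tested genes. SP100, a core protein of PML bodies, had 58.9, 59.7 and 64.4 CPM in UNC1999, against 33.0 and 38.9 CPM in DMSO. All UNC1999 libraries lay above both DMSO libraries, with a log2 fold change of 0.76 ± 0.12 SE (adjusted p = 7.3e-06 by edgeR) and 0.69 with offsets. PML, the scaffold of these bodies, had 210.8, 175.3 and 225.3 CPM in UNC1999, against 176.1 and 161.5 CPM in DMSO. Its groups overlapped through UNC1999 replicate 2, and it did not pass the test (0.27, adjusted p = 0.0622 by edgeR) except without that library (0.38, adjusted p = 0.000183 by edgeR), with offsets (0.19, 0.0307), with DESeq2 size factors (0.0385), without normalization factors (0.00733) or in the DESeq2 test (adjusted p = 0.046). SP110 had 74.6 to 85.5 CPM in UNC1999, against 85.3 and 88.2 CPM in DMSO (-0.13, adjusted p = 0.397 by edgeR). TRIM22 had 1 to 4 counts in UNC1999 and 1 in each DMSO library and was not tested.

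Among the antiviral GTPases, MX1 fell and GBP1 rose. MX1, the dynamin-like GTPase that traps viral nucleocapsids and is one of the most used reporters of type I interferon, had 28.6, 28.9 and 27.5 CPM in UNC1999, against 43.2 and 41.1 CPM in DMSO. Its groups were far apart for their spread, at 28.3 ± 0.706 CPM in UNC1999 and 42.2 ± 1.46 CPM in DMSO (SD, n = 3 and n = 2), or -0.57 ± 0.12 SE on the log2 scale (adjusted p = 0.00029 by edgeR). The call held with each library left out, and the value was -0.26 with offsets (adjusted p = 0.0347 by edgeR). MX2, its paralog, had at most 1 count in any library. GBP1, a guanylate-binding protein gene, had 58.4, 68.6 and 75.7 CPM in UNC1999, against 49.8 and 57.1 CPM in DMSO (0.34 ± 0.12 SE, adjusted p = 0.0284 by edgeR). It was not called with offsets (0.19, adjusted p = 0.123 by edgeR) or without DMSO replicate 1 or 2 or UNC1999 replicate 3 (0.342, 0.061 and 0.174), and it has close paralogs with which reads could be shared. GBP2 had 141.2 to 162.6 CPM in UNC1999, against 150.4 and 171.2 CPM in DMSO, and was not called (-0.065, adjusted p = 0.692 by edgeR).

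**Figure D3:**
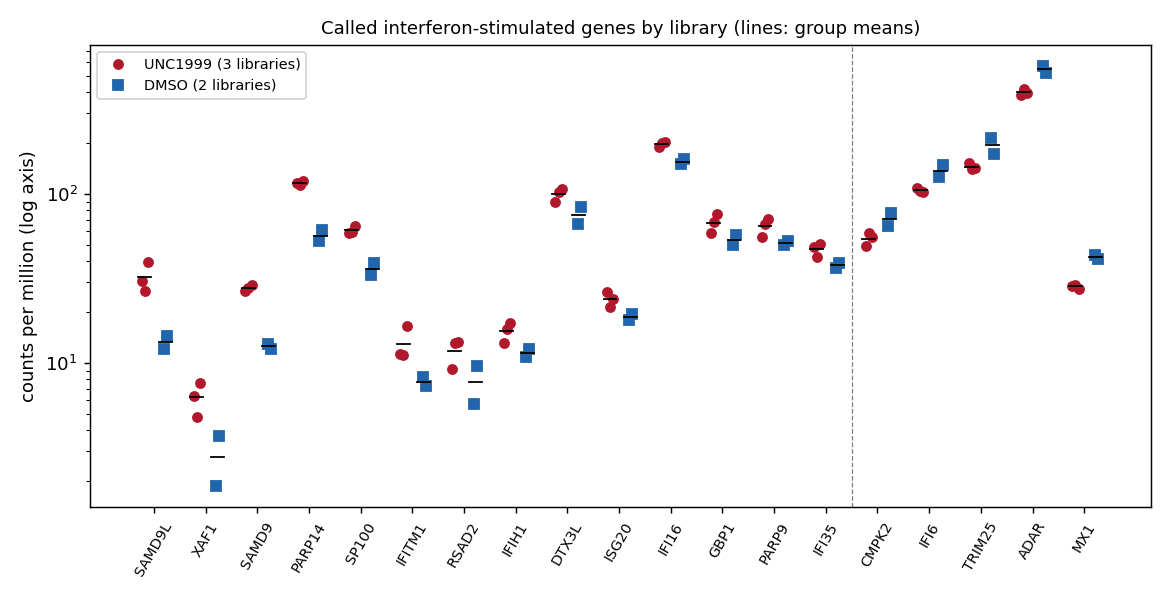
CPM on a log axis for the 19 called members, with UNC1999 libraries as red circles and DMSO libraries as blue squares, each left or right of the gene's tick, and group means as short lines. Members left of the dashed line were higher in UNC1999 and members right of it were lower. The groups overlap for RSAD2 and for no other gene shown.

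None of the 4 OAS genes passed the test, with 15.7% of all tested genes called higher and 19.5% called lower. OAS1, OAS2 and OAS3 make the 2-5 oligoadenylates that switch on the nuclease RNase L, and OASL is a family member without that activity. OAS2 had 42.7, 51.1 and 44.8 CPM in UNC1999, against 56.4 and 54.9 CPM in DMSO, and no UNC1999 library reached either DMSO library (-0.27 ± 0.12 SE, adjusted p = 0.0726 by edgeR). Without UNC1999 replicate 2 it passed (-0.34, adjusted p = 0.00507 by edgeR). OAS1 had -0.28 and OAS3 -0.35 (adjusted p = 0.193 and 0.132 by edgeR), at 7.51 to 11.0 CPM in UNC1999 and 9.75 to 14.8 CPM in DMSO over both genes. With offsets OAS1 had 0.10, OAS2 -0.064 and OAS3 -0.091. OASL had 66.5, 67.9 and 75.2 CPM in UNC1999, against 62.7 and 64.1 CPM in DMSO (0.14, adjusted p = 0.356 by edgeR), and passed with offsets only (0.42, adjusted p = 0.000147 by edgeR).

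The IFIT genes, whose products bind foreign RNA ends and block its translation and which are among the genes most strongly induced by interferon in many cells, had few counts and did not pass the test. IFIT1 had 13, 11 and 9 counts in UNC1999, against 9 and 8 in DMSO. IFIT2 had 8, 12 and 15 counts in UNC1999, against 8 and 10 in DMSO. These were the members just inside the count filter, and IFI44, with 8, 4 and 5 counts in UNC1999 and 8 in each DMSO library, was just outside it. IFIT3 had 18, 30 and 30 counts in UNC1999, against 14 and 21 in DMSO. IFIT5 had 5.19, 7.85 and 5.46 CPM in UNC1999, against 3.60 and 4.64 CPM in DMSO, with a log2 fold change of 0.58 ± 0.24 SE (adjusted p = 0.0534 by edgeR). The values of the others lay between 0.25 and 0.45 with standard errors of 0.32 to 0.45, so changes of this size were not detectable at this depth. IFIT5 passed with DESeq2 size factors (adjusted p = 0.0415 by edgeR), without normalization factors (0.0201), without UNC1999 replicate 1 (0.0271) and without UNC1999 replicate 3 (0.0297), and had 0.14 with offsets.

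Of 4 tested membrane restriction factor genes, 2 were higher, or 50%, with 15.7% of all tested genes. IFITM1, which encodes a small membrane protein that hinders the fusion of viruses with cells, had 11.3, 11.1 and 16.5 CPM in UNC1999, against 8.19 and 7.25 CPM in DMSO. Its groups did not overlap, with a log2 fold change of 0.75 ± 0.19 SE (adjusted p = 0.00192 by edgeR) and 0.99 with offsets, although without DMSO replicate 2 the adjusted p was 0.0532. IFITM2 had 9.82, 10.5 and 11.4 CPM in UNC1999, against 7.95 and 8.92 CPM in DMSO, and passed with offsets only (0.47, adjusted p = 0.025 by edgeR; 0.32 and 0.154 without). IFITM3 had 2 to 6 counts in UNC1999 and 3 and 5 in DMSO and was not tested. The 3 IFITM genes lie side by side on chromosome 11 and are close in sequence, so their counts are uncertain. RSAD2, the gene of viperin, had 9.15, 13.1 and 13.2 CPM in UNC1999, against 5.71 and 9.63 CPM in DMSO. Its groups overlapped, and its log2 fold change of 0.62 ± 0.20 SE (adjusted p = 0.014 by edgeR) was 0.29 without DMSO replicate 1 (0.416), 0.36 with offsets (0.135) and not called in DESeq2 (adjusted p = 0.0528). RSAD2 and CMPK2 are neighbours on chromosome 2, and the first was called higher and the second lower. BST2, the gene of tetherin, had 263.2 to 277.7 CPM in UNC1999, against 256.9 and 295.1 CPM in DMSO, and was not called (-0.024, adjusted p = 0.887 by edgeR).

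ISG15, a ubiquitin-like protein gene that interferon induces early, did not pass the test. It had 49.0, 41.4 and 50.6 CPM in UNC1999, against 35.01 and 49.5 CPM in DMSO, and the DMSO libraries differed from each other by more than the groups did (0.15 ± 0.13 SE, adjusted p = 0.395 by edgeR). UBE2L6, the enzyme that carries ISG15 to its targets, had 154.3 to 158.6 CPM in UNC1999, against 169.0 and 170.4 CPM in DMSO (-0.11, adjusted p = 0.441 by edgeR). The ligase genes were not called either. HERC5 had 11.7 to 16.0 CPM in UNC1999, against 9.93 and 11.8 CPM in DMSO (0.31, adjusted p = 0.159 by edgeR), and HERC6 had 6.76 to 7.34 CPM in UNC1999, against 5.09 and 6.54 CPM in DMSO (0.29, adjusted p = 0.281 by edgeR). TRIM25, a ubiquitin ligase gene that also acts with the sensor of DDX58, had 151.8, 139.7 and 142.5 CPM in UNC1999, against 214.8 and 172.5 CPM in DMSO. It fell below both DMSO libraries in each UNC1999 library (-0.42 ± 0.11 SE, adjusted p = 0.00304 by edgeR; -0.19 with offsets), and lost its call without DMSO replicate 1 (-0.26, adjusted p = 0.253 by edgeR).

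The remaining members again went both ways. XAF1, a proapoptotic gene whose product counters the inhibitor XIAP, had 6.32, 4.796 and 7.62 CPM in UNC1999, against 1.86 and 3.69 CPM in DMSO. This is a log2 fold change of 1.16 ± 0.27 SE (adjusted p = 0.000939 by edgeR) and 1.13 with offsets, with no overlap. Without DMSO replicate 1 it was 0.75 (adjusted p = 0.0887 by edgeR), and in GENCODE 29 the gene PRAL covers 69.9% of its exon bases on the opposite strand. IFI6, a small membrane protein gene, had 108.7, 103.7 and 102.7 CPM in UNC1999, against 126.1 and 148.6 CPM in DMSO (-0.39 ± 0.11 SE, adjusted p = 0.00536 by edgeR). It was -0.21 with offsets, where it was called, and -0.27 without DMSO replicate 2 (adjusted p = 0.213 by edgeR). IFI35 had 48.6, 42.4 and 50.3 CPM in UNC1999, against 36.5 and 39.0 CPM in DMSO (0.32 ± 0.12 SE, adjusted p = 0.0396 by edgeR, and 0.37 with offsets). Its call was lost whenever a library other than UNC1999 replicate 2 was left out (adjusted p = 0.112 to 0.282 by edgeR), without the filter on low counts (0.0718) and in the DESeq2 test (0.0504). EPSTI1 had 4.29, 4.91 and 4.67 CPM in UNC1999, against 5.71 and 7.25 CPM in DMSO, and was not called (-0.49, adjusted p = 0.0737 by edgeR). IFI44L had 1 to 4 counts in UNC1999 and 1 and 0 in DMSO and was not tested.

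Levels per length of transcript placed the members over a wide range in both groups. In mean CPM per kilobase, BST2 was highest at 266.4 in UNC1999 and 270.9 in DMSO, ahead of IFI6 with 126.9 in UNC1999 and 165.9 in DMSO and UBE2L6 with 107.3 in UNC1999 and 115.9 in DMSO. Of the tested members, IFIT2 was lowest at 0.374 in UNC1999 and 0.313 in DMSO, and IFIT1 had 0.379 in UNC1999 and 0.319 in DMSO. The genes that rose most stood between, with 14.7 in UNC1999 and 7.15 in DMSO for PARP14, 5.56 in UNC1999 and 2.28 in DMSO for SAMD9L, 4.08 in UNC1999 and 1.84 in DMSO for SAMD9 and 2.40 in UNC1999 and 1.07 in DMSO for XAF1.

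The genes that feed the interferon response were read from the same fit. Of 109 other genes on 7 lists, 64 were tested. With offsets 12 were higher and 9 lower (18.75% and 14.1%, with 14.7% and 18.3% of all genes in that fit). Without offsets 17 were higher and 11 lower (26.6% and 17.2%, with 15.7% and 19.5% of all tested genes). With either DMSO library left out, fewer of these genes were called in each direction, and so were fewer of all tested genes. Interferon genes themselves were hardly detected. Of 21 listed, 18 had no count in any library, among them IFNB1 and all the listed IFNA genes, each allowing up to 0.372 CPM. Near-identical IFNA copies could lose reads. IFNW1 had at most 1 count in a library, and IFNL1 had 2 to 5 counts in UNC1999, against 3 and 4 in DMSO. IFNG, the interferon of NK cells, had 11.4, 14.2 and 19.9 CPM in UNC1999, against 14.0 and 18.0 CPM in DMSO, and was not called (-0.080, adjusted p = 0.758 by edgeR; with offsets -0.42, 0.0414).

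Of 9 tested genes for interferon receptors and JAK-STAT signalling, 3 were higher and 1 lower, and the chains of the type I receptor went opposite ways. These calls were 33.3% and 11.1% of the list, with 15.7% and 19.5% of all tested genes. IFNAR1 had 24.3, 25.4 and 27.6 CPM in UNC1999, against 17.01 and 19.5 CPM in DMSO (0.50 ± 0.14 SE, adjusted p = 0.00449 by edgeR), and IFNAR2 had 13.4, 16.1 and 12.7 CPM in UNC1999, against 24.96 and 23.2 CPM in DMSO (-0.77 ± 0.14 SE, adjusted p = 5.95e-05 by edgeR). With offsets IFNAR1 was not called (0.18, adjusted p = 0.264 by edgeR), while IFNAR2 was (-0.53, adjusted p = 0.000693 by edgeR). The gamma receptor gene IFNGR1 (0.49) and the kinase gene JAK2 (0.92) were also higher, and neither was called with offsets (0.17 and 0.45). IFNGR2, a gamma receptor gene named after its values were seen, had no count in any library and was not tested. The annotation version is not given and overlapping genes may lose reads, so this 0 need not mean that the transcript was absent. Which of these holds was not tested. IFNAR1 and JAK2 lost their calls without DMSO replicate 1 (adjusted p = 0.12 and 0.123 by edgeR), and IFNGR1 without either DMSO library (0.0942 and 0.0645). IRF9, named after its values were seen, had 1.36, 3.27 and 1.48 CPM in UNC1999, against 2.48 and 2.73 CPM in DMSO, and was not called (-0.35, adjusted p = 0.468 by edgeR).

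**Figure D4:**
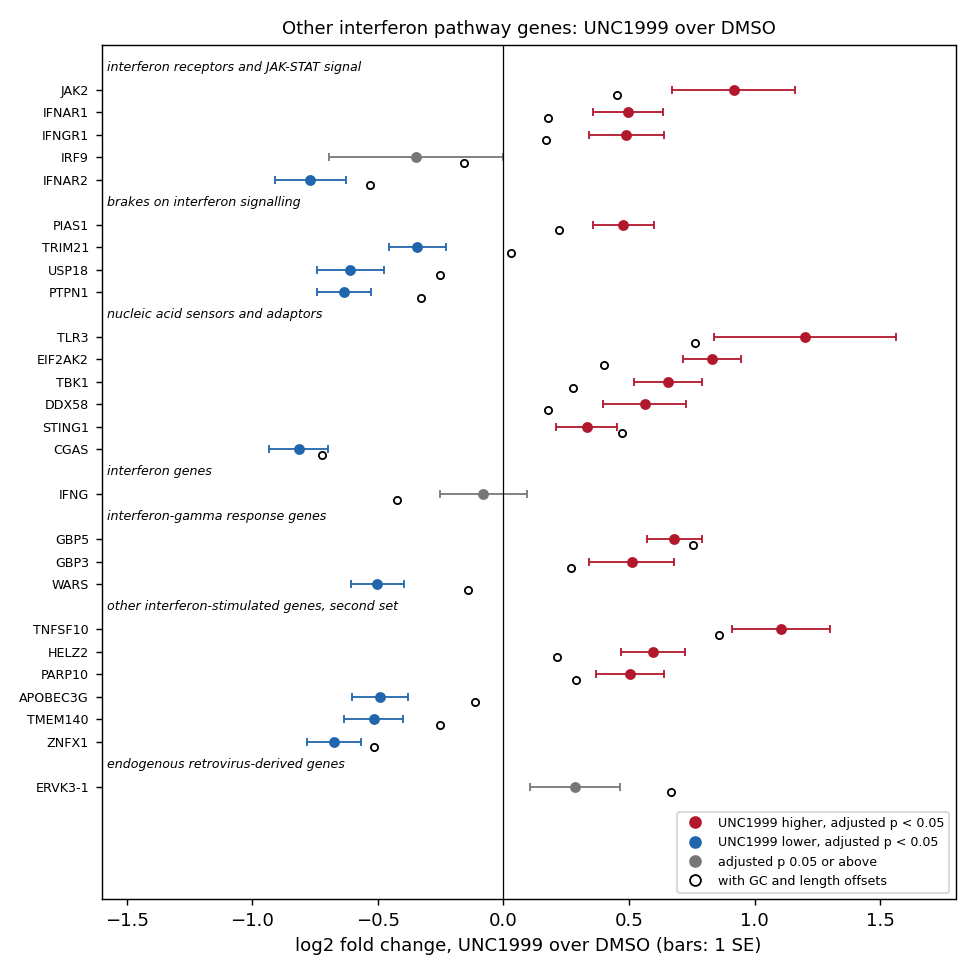
Log2 fold change of UNC1999 over DMSO for the named genes of the other interferon pathway lists, with bars of 1 SE from the edgeR fit, red for higher, blue for lower and grey for not called, and open circles for the value with offsets. IFNAR1 and IFNAR2 lie on opposite sides of 0, as do STING1 and CGAS.

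Brakes on interferon signalling gave 1 higher and 3 lower of 8 tested, or 12.5% and 37.5%, with 15.7% and 19.5% of all tested genes. With offsets the list gave 0 and 1, or 0% and 12.5%, with 14.7% and 18.3% of all genes in that fit. USP18, which removes ISG15 from proteins and is itself interferon-induced, had 16.6, 17.9 and 18.1 CPM in UNC1999, against 27.7 and 25.8 CPM in DMSO (-0.61 ± 0.13 SE, adjusted p = 0.00044 by edgeR; -0.25, 0.0884 with offsets). The phosphatase gene PTPN1 fell (-0.63, and -0.33 with offsets), and so did TRIM21 (-0.34), whose call was lost when any library other than UNC1999 replicate 2 was left out (adjusted p = 0.0621 to 0.185 by edgeR) and without normalization factors (0.112), and whose value was 0.030 with offsets. PIAS1, of a family that restrains STAT proteins, rose (0.48; 0.22 with offsets, not called).

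Nucleic acid sensors and their adaptors gave 6 higher and 1 lower of 16 tested, or 37.5% and 6.25%, with 15.7% and 19.5% of all tested genes. With offsets they gave 3 and 2, or 18.75% and 12.5%, with 14.7% and 18.3% of all genes in that fit. EIF2AK2, the gene of the RNA-activated kinase PKR, had 73.5, 73.9 and 71.5 CPM in UNC1999, against 40.6 and 41.4 CPM in DMSO (0.83 ± 0.12 SE, adjusted p = 9.66e-07 by edgeR; 0.40 with offsets). CGAS, the gene of the DNA sensor that makes cyclic GMP-AMP, had 38.5, 46.2 and 37.4 CPM in UNC1999, against 71.0 and 72.4 CPM in DMSO (-0.82 ± 0.12 SE, adjusted p = 1.53e-06 by edgeR; -0.72 with offsets). Its adaptor STING1 had 0.33 (0.47 with offsets), a call lost when any library other than UNC1999 replicate 2 was left out (adjusted p = 0.0631 to 0.22 by edgeR). The RNA sensor gene DDX58 (0.56), the kinase gene TBK1 (0.66) and TLR3 (1.20) were called higher without offsets and not with them (0.18, 0.28 and 0.76), and DDX58 lost its call without DMSO replicate 1 (adjusted p = 0.0947 by edgeR) and TLR3 without DMSO replicate 2 (0.63, 0.288). TLR3 and STING1 were named after their values were seen.

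The gamma-response list gave 2 higher and 1 lower of 6 tested, or 33.3% and 16.7%, with 15.7% and 19.5% of all tested genes. GBP5 (0.68, and 0.75 with offsets) and GBP3 (0.51) rose, and WARS (-0.50) fell. GBP3 and WARS were not called with offsets (0.27 and -0.14), and GBP3 was not called without DMSO replicate 1 or 2 or UNC1999 replicate 3 (adjusted p = 0.139, 0.0755 and 0.0888 by edgeR) or in the DESeq2 test (0.0561). With offsets the list again gave 2 higher and 1 lower, since CIITA passed as higher (0.35, adjusted p = 0.00045 by edgeR) and GBP4 as lower (-0.54, adjusted p = 5.88e-05 by edgeR), both named after their values were seen. A second set of interferon-stimulated genes outside the members gave 5 higher and 5 lower of 22 tested, or 22.7% each, with 15.7% and 19.5% of all tested genes, and 5 higher and 3 lower with offsets. TNFSF10, the gene of the death ligand TRAIL, rose (1.11, and 0.86 with offsets), as did HELZ2 (0.60, and 0.22 with offsets). PARP10 also rose (0.50, and 0.29 with offsets), but its call was lost without DMSO replicate 1 (0.38). The RNA sensor gene ZNFX1 (-0.68; -0.52 with offsets) and TMEM140 (-0.52; -0.25 with offsets) fell. APOBEC3G, a cytidine deaminase gene, also fell (-0.49; -0.11 with offsets, not called; adjusted p = 0.0523 by edgeR without DMSO replicate 1). Of 12 listed endogenous retrovirus-derived genes, 2 had enough counts to be tested and neither passed, with ERVK3-1 at 10.8, 8.94 and 10.7 CPM in UNC1999, against 8.82 and 7.85 CPM in DMSO (0.29, adjusted p = 0.219 by edgeR; with offsets 0.67, 0.00205). Retroelement copies outside annotated genes were not analysed here.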

How the data were processed

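RNA of 5 NK92MI libraries was sequenced. The table that the authors deposited holds raw read counts under gene symbols, of which 222 had more than 1 row and none was a member. The submitters' processing notes list hg19, HTSeq 0.13.5, STAR 2.7.9, fastp and edgeR 3.34.0, without their roles. Strand setting and annotation version are not given in the sources at hand, so overlapping or near-identical genes may share or lose reads. Columns were matched to samples by name. No row lacked a gene name.

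Genes kept by filterByExpr (13075) went into a quasi-likelihood F-test for UNC1999 over DMSO (edgeR 4.0.16, R 4.3.3) with TMM factors, Benjamini-Hochberg adjustment over all tested genes and a threshold of 0.05. A standard error is the log2 fold change divided by the square root of F. Transcript length and GC content of 11258 tested genes (86.1%) were taken from GENCODE 29 on GRCh38, not the hg19 of the authors. The offsets came from natural splines fitted per library to log2 CPM centred on the gene mean, with 6 df for GC content and 4 df for log length. Tests on simulated counts called 93% of 2-fold and 62% of 1.5-fold changes (200 changed among 13075 genes), and 6.06% of calls were unchanged genes. Changed genes were drawn above a minimum mean count, with the same dispersion for all genes. These shares therefore do not cover members with few counts, such as IFIT1 and IFIT2. With a simulated trend in 11258 genes and no true change, 2920 were called without offsets and 1 with them. That trend was a smooth function of GC content and log length, which the splines fit. Its removal cannot show what the offsets do to real changes.

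Members, lists and alternatives were chosen with earlier results of these data known. All members are named. Each called member has its values per library, and up to 3 called genes per direction come from each other list, or the most abundant where none was called. Alternatives were DESeq2 1.42.0 size factors, no factors, no filter, the members' count filter, a replicate block, the DESeq2 test, offsets, annotated genes only and each library left out. Where a left-out library leaves 1 DMSO library, its spread is assumed to be that of the others.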

Additional observations from a re-analysis of the deposited data

How the results depend on the processing

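The members called higher (14) and lower (5) stayed within 1.5 times these counts under all 8 alternatives that kept every library. With 1 library left out the counts ran from 5 to 15 higher and from 3 to 6 lower. The other pathway genes ran from 7 to 20 higher (17 with all libraries) and from 7 to 13 lower (11). All tested genes ran from 1158 to 2862 higher (2057) and from 1367 to 3030 lower (2546). Of 19 called members, 5 (SAMD9L, SAMD9, PARP14, SP100 and MX1) kept their call under all 13 alternatives, and 14 lost it when some library was left out. No called member changed sign. Among members that were not called, GC and length offsets turned GBP2 (0.18), OAS1 (0.10), BST2 (0.096), UBE2L6 (0.030), STAT2 (0.17) and SP110 (0.18) positive. Signs across alternatives were compared for members and for pathway genes picked for naming, where TRIM21 (0.030) also turned positive. Other pathway genes changed sign with offsets in either direction, such as LAP3 (-0.024 without and 0.27 with offsets) and TRIM38 (0.41 and -0.11). Without normalization factors GBP2 (0.040), BST2 (0.079) and IFNG (0.023) were positive. With 1 library left out, values on both sides of 0 were found for GBP2 (-0.16 to 0.029), BST2 (-0.12 to 0.076), ISG15 (-0.078 to 0.42) and IFNG (-0.32 to 0.11). The cause of these changes was not tested. Equal replicate numbers are not said to pair the libraries (correlations of deviations 0.07 and 0.04). With a replicate block 10 members were higher and 5 lower. That fit called 1886 of all tested genes higher and 2136 lower, against 2057 and 2546 without the block. There IFIH1, PARP9, ISG20, IFI35 and GBP1 were no longer called (adjusted p = 0.0776 to 0.181 by edgeR) and IFIT5 was called (0.0258). Depth limits the rarest tested members, since IFIT1 and IFIT2, near 1 CPM, had standard errors of 0.45 on the log2 scale.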
